A study of Mus musculus with 21 samples.

Results

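The synapse genes described here were 36 protein-coding mouse genes, chosen by name and found once in each of the 3 expression tables of the series. The linc-Brn1b table lists 40770 genes, and the Fendrr and Peril tables list 42760 genes each. The members were sorted by function into 7 groups. These were vesicle proteins, synaptotagmins, SNAREs with complexins, vesicular transporters, active zone proteins, postsynaptic density proteins and adhesion molecules.

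RNA was sequenced from 3 mouse strains in which a long intergenic noncoding RNA (lincRNA) gene was replaced with a lacZ cassette, made in hybrid embryonic stem cells and crossed once to C57BL/6J. From the linc-Brn1b strain came the telencephalon of E13.5 and E15.5 embryos and the whole brain of P7 pups. The Peril strain (named linc-Sox2 in the sample labels) gave the whole brain at E18.5, and the Fendrr strain (named linc-Foxf1a) the lung at E14.5. Each was taken from homozygous knockout and wild-type animals. Each of the 10 groups had 2 libraries, except the E15.5 linc-Brn1b knockout, for which the labels list 3 libraries. The study's text gives n = 2 for its linc-Brn1b RNA sequencing, and which libraries entered the pooled value of that E15.5 group is not known. All levels are in FPKM, fragments scaled to transcript length and to library size, and each is 1 value that the authors pooled over the libraries of a group. The spread between animals is therefore unknown. Differences are given on the log2(FPKM + 1) scale, which understates the change of genes with low levels, and none of them carries a test. A difference of 0.5 on this scale is a ratio of 1.41 between the FPKM values after adding 1.

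In the linc-Brn1b table the linc-Brn1b entry was listed at 0 in the knockout at all 3 ages, and wild-type values were 1.60 FPKM for E13.5, 2.50 FPKM for E15.5 and 0.799 FPKM for P7. The Fendrr entry stood at 38.4 FPKM in wild-type lung and at 0.0450 FPKM in the knockout. At the Peril locus the entry listed, which reaches beyond the deleted part, stood at 0.0109 FPKM for the wild type but reached 4.65 FPKM under the knockout label, so those libraries are called by their label below. A set of 4 Y-linked genes (Uty, Kdm5d, Ddx3y and Eif2s3y) separated the genotypes in each of the 5 comparisons, with sums of 21.0 to 49.2 FPKM in one genotype and at most 0.0357 FPKM in the other. The sums were high in the wild type at E13.5 and in lung, and high in the knockout at E15.5, E18.5 and P7. Sex and genotype cannot be told apart here. In each linc-Brn1b genotype the sums also changed between E13.5 and the later ages, so age and sex cannot be told apart across that step. The 3 members Syn1, Syp and Nlgn3 lie on the X chromosome. In these bulk tissues, fewer neurons and less RNA per neuron cannot be told apart either.

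At a chemical synapse, neurotransmitter is loaded into vesicles by transporters, vesicles dock at the active zone, and calcium bound by synaptotagmin triggers fusion through the SNARE complex. On the other side, scaffolds of the postsynaptic density hold receptors and kinases opposite the release site, and neurexins and neuroligins join the membranes across the cleft. In the rodent forebrain most synapses form after birth, while many of their components are made earlier in growing neurons. The repressor REST is known to hold many neuronal genes off outside neurons through the RE1 element, and CREB acts through the cAMP response element.

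Promoter windows were available for 27 of the 36 members in a RefSeq set on build GRCm38.p6, as 43 windows that run from 250 bases before to 50 bases after a gene start. The median GC content of these windows was 59.0% against 52.7% over all 32851 windows, and the median count of CpG dinucleotides was 14 against 7. The left arm of RE1, CAGCACC, was found on either strand in 9.3% of the member windows and in 7.14% of all windows. The right arm, GGACAG, was found in 25.6% and 22.2%, the cAMP response element TGACGTCA in 2.33% and 1.79%, and the TATA box TATAAA in 6.98% and 13.6%. The member shares rest on few of the 43 windows. They were 4 for the left arm, 11 for the right arm, 1 for the cAMP response element and 3 for the TATA box. These shares describe letters in the windows and not bound sites. The 3 windows that held more than one of these motifs are shown, 5′ to 3′ along the gene, with each match on either strand in capitals.
Syn1, chrX:20920869-20921168, minus strand: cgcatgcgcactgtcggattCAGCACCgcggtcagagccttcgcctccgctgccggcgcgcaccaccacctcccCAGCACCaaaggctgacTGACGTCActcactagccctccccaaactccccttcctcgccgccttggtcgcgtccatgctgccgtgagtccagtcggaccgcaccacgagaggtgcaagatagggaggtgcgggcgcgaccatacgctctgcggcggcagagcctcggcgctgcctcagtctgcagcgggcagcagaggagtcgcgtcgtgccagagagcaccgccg
Unc13a, chr8:71671708-71672007, minus strand: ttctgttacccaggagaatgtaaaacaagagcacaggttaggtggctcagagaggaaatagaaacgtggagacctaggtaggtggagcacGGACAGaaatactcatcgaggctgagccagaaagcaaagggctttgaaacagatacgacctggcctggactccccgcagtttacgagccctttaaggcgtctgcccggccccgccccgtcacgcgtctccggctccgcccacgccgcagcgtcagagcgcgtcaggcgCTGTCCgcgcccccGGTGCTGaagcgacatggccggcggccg
Sv2b, chr7:75309213-75309512, minus strand: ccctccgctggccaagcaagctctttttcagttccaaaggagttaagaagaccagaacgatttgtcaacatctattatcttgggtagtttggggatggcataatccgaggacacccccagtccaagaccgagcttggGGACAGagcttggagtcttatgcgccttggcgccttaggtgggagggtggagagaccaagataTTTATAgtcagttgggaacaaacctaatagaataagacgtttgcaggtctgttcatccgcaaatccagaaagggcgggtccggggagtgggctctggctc
The Syn1 window held CAGCACC at positions 21 and 75, counted from its first base, and the palindrome TGACGTCA at position 92. The Unc13a window held the right arm of RE1 at position 91 and, on the other strand, at position 259, with the left arm on the other strand at position 273. Sv2b held the right arm at position 138 and the TATA box on the other strand at position 201.

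The levels in wild-type brain show which synaptic genes were present early. At E13.5, 35 of the 36 members stood at 1 FPKM or more in wild-type telencephalon, with a median over members of 12.8 FPKM and a range from 0.609 FPKM for Syt2 to 84.8 FPKM for Syt11. The median was 19.7 FPKM at E15.5 and 55.7 FPKM in P7 whole brain, while the median of all genes at or above 1 FPKM went from 11.6 FPKM to 11.4 FPKM and 9.58 FPKM. In wild type, 31 members stood higher at each later age and 35 were highest at P7. Of all genes compared, 51.2% were higher at E15.5 than at E13.5, and 45.3% in P7 brain than at E15.5. The share of all genes higher at both steps was not counted. P7 was whole brain and the earlier ages were telencephalon, so age and dissection cannot be told apart in any value that involves P7.

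Between E13.5 and E15.5 in wild type, both telencephalon, the median member difference was 0.62 against 0.01 over all 13539 genes compared. Those are the genes with a mean of at least 1 FPKM over both groups. The Y-linked gene Eif2s3y stood at 16.5 FPKM at E13.5 and 0.00554 FPKM at E15.5, so age and sex cannot be told apart here. Of the 35 members compared, 5 were higher by at least 1 on the log2(FPKM + 1) scale and 0 lower, where 2.15% of all genes were higher and 1.99% lower. The 5 were Dlg2, Cplx1, Snap25, Syt5 and Rims1. Dlg2, which encodes the scaffold PSD-93, went from 7.96 FPKM to 22.9 FPKM, the largest difference of the members at 1.42. Cplx1, a complexin that clamps and promotes fusion, went from 12.4 FPKM to 31.3 FPKM, a difference of 1.27. Slc17a6, the vesicular glutamate transporter VGLUT2, was lowest in this order at -0.14, with 17.2 FPKM at E13.5 and 15.49 FPKM at E15.5. Progenitor markers went the other way over the same interval, with all 12 lower and a sum of 1391 FPKM at E13.5 and 750 FPKM at E15.5, and pan-neuronal markers summed to 2575 FPKM and 4036 FPKM.

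Between E15.5 telencephalon and P7 brain in wild type the median member difference was 1.41 against -0.10 over all 14152 genes compared. In this interval 20 of the 36 members were higher by at least 1 and 0 lower, beside 14.2% of all genes higher and 12.8% lower. The groups differed in how far they went. All 6 SNAREs and complexins passed 1, with a median of 1.99, and 5 of 6 vesicle proteins did so, with a median of 2.01. The 5 active zone genes had a median of 0.72 with 1 past the threshold, and the 4 adhesion genes a median of 0.43, also with 1. Vamp1, a vesicle SNARE known mainly from brainstem, spinal cord and other caudal regions, had the largest difference at 3.21, from 2.35 FPKM to 30.1 FPKM.

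Over the whole span from E13.5 to P7, 15 members were at least 5-fold higher in wild type at P7 and 6 were under 2-fold higher. The matching shares of all genes were not counted, so these counts describe the members alone. Snap25, a SNARE of the presynaptic membrane, went from 25.2 FPKM through 58.5 FPKM to 262 FPKM, a ratio of 10.4. Syp, the vesicle protein synaptophysin, stood at 39.9 FPKM, 68.8 FPKM and 342 FPKM. Syt1, the calcium sensor of fast release, stood at 30.3 FPKM, 48.2 FPKM and 217 FPKM. These 3 presynaptic genes were therefore all present before birth and several-fold higher at P7. The 6 members with the smallest ratios were Syt11, Rims2, Bsn, Homer1, Nlgn2 and Nlgn3. Bsn, the large active zone scaffold bassoon, stood at 7.001 FPKM, 11.28 FPKM and 10.95 FPKM, and was the 1 member not highest at P7. Nlgn2, the neuroligin of inhibitory synapses, stood at 35.96 FPKM, 48.7 FPKM and 54.7 FPKM. Syt11, a synaptotagmin that does not bind calcium, was the highest member at E13.5 and stood at 84.8 FPKM, 83.9 FPKM and 118 FPKM.

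**Figure D1:**
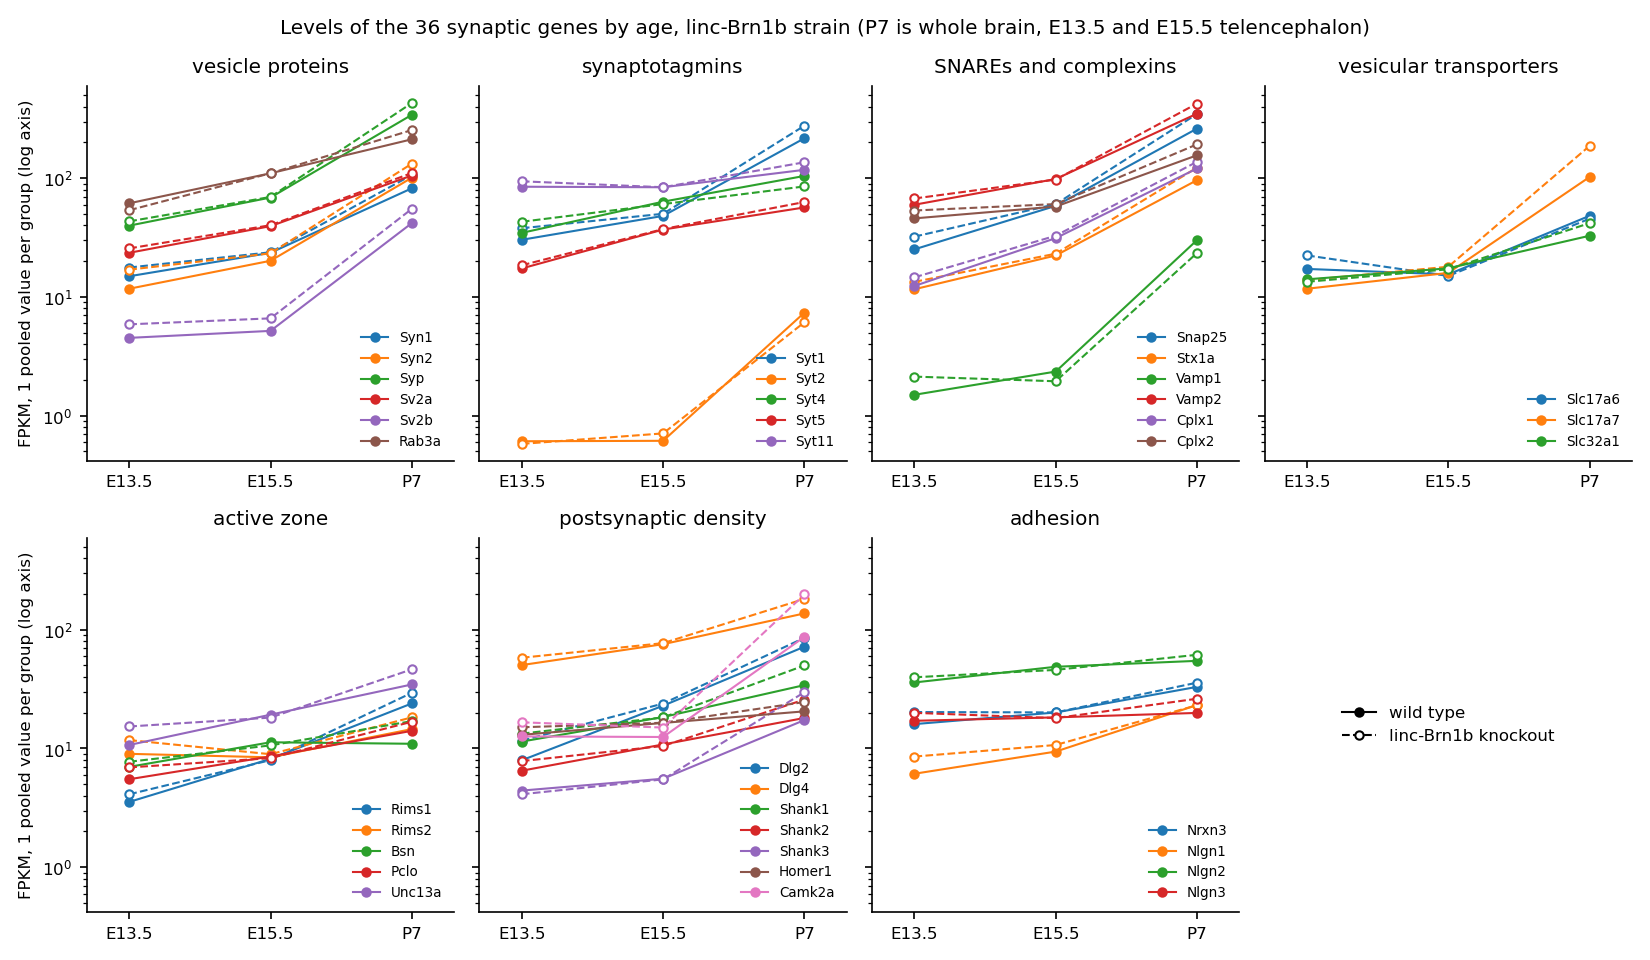
FPKM of the 36 members (log axis) by age in the linc-Brn1b strain, one panel per functional group, P7 being whole brain and the earlier ages telencephalon, with 1 pooled value per point, wild type as filled points on solid lines and knockout as open points on dashed lines. At P7 the open points lie above the filled ones for 31 members, and the widest gap is that of Camk2a, at 87.0 FPKM and 198 FPKM.

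In the knockout the same intervals were read. Between E13.5 and E15.5 the median member difference in the knockout was 0.38, against -0.03 over all 13569 genes compared. Here 2 members, Cplx1 and Rab3a, were higher by at least 1 and 0 lower, beside 3.23% of all genes higher and 1.48% lower. Eif2s3y went from 0.00723 FPKM to 9.94 FPKM over this interval, the reverse of wild type. Age and sex cannot be told apart in it either. Between E15.5 and P7 the knockout median was 1.49, against -0.10 over 14109 genes, and 26 members were higher by at least 1, beside 15.7% of all genes. All 36 members were positive, where 45.6% of all genes were. The interval from E13.5 to E15.5 was larger in wild type for 32 of 36 members, and that from E15.5 to P7 was larger in the knockout for 31. The matching shares of all genes were not counted, so the counts do not show a change particular to the members. These intervals share their groups with the genotype comparisons described next and restate them in another form.

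Ratios between paralogs show which family member dominated at each age, in FPKM, which is scaled to transcript length. Slc17a7, the forebrain glutamate transporter VGLUT1, and Slc17a6 stood at a wild-type ratio of 0.681 at E13.5, then 1.03 at E15.5, then 2.12 at P7. In the knockout the ratio was 0.620, 1.20 and 4.10. The genotypes were near each other before birth and apart at P7, where Slc17a7 stood at 102 FPKM in wild type against 187 FPKM in the knockout while Slc17a6 stood at 48.3 FPKM and 45.6 FPKM. For the Peril strain at E18.5, from a table normalized separately, the ratio was 0.471 for wild type and 0.443 under the knockout label. That tissue was whole brain, while E13.5 and E15.5 were telencephalon, so age, strain and dissection cannot be told apart in this ratio.

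Vamp1 was a small share of Vamp2, the main vesicle SNARE of the forebrain, in every brain group. The ratio of Vamp1 to Vamp2 was 0.0251 at E13.5 and 0.0861 at P7 in wild type, and 0.0316 and 0.0552 in the knockout. Syt2, a fast calcium sensor used mainly in brainstem and spinal cord, stood at 0.0340 of Syt1 in wild-type P7 brain and at 0.0221 in the knockout. For both pairs the caudal paralog took a smaller share in the knockout at P7. In the Peril strain at E18.5 both shares were larger under the knockout label. Vamp1 to Vamp2 stood there at 0.0451 for wild type and 0.0584 for the knockout label, and Syt2 to Syt1 at 0.0337 and 0.0488. Dlg4, which encodes PSD-95, stood at a ratio to Dlg2 of 6.33 in wild type at E13.5 and 1.91 at P7, and of 4.98 and 2.13 in the knockout. Cplx1 approached Cplx2 with age, with wild-type ratios of 0.270, 0.542 and 0.774 in order of age and knockout values of 0.274, 0.542 and 0.713. Sv2b to Sv2a, vesicle glycoproteins, stood at 0.192, 0.131 and 0.397 in wild type and at 0.229, 0.164 and 0.499 in the knockout.

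**Figure D2:**
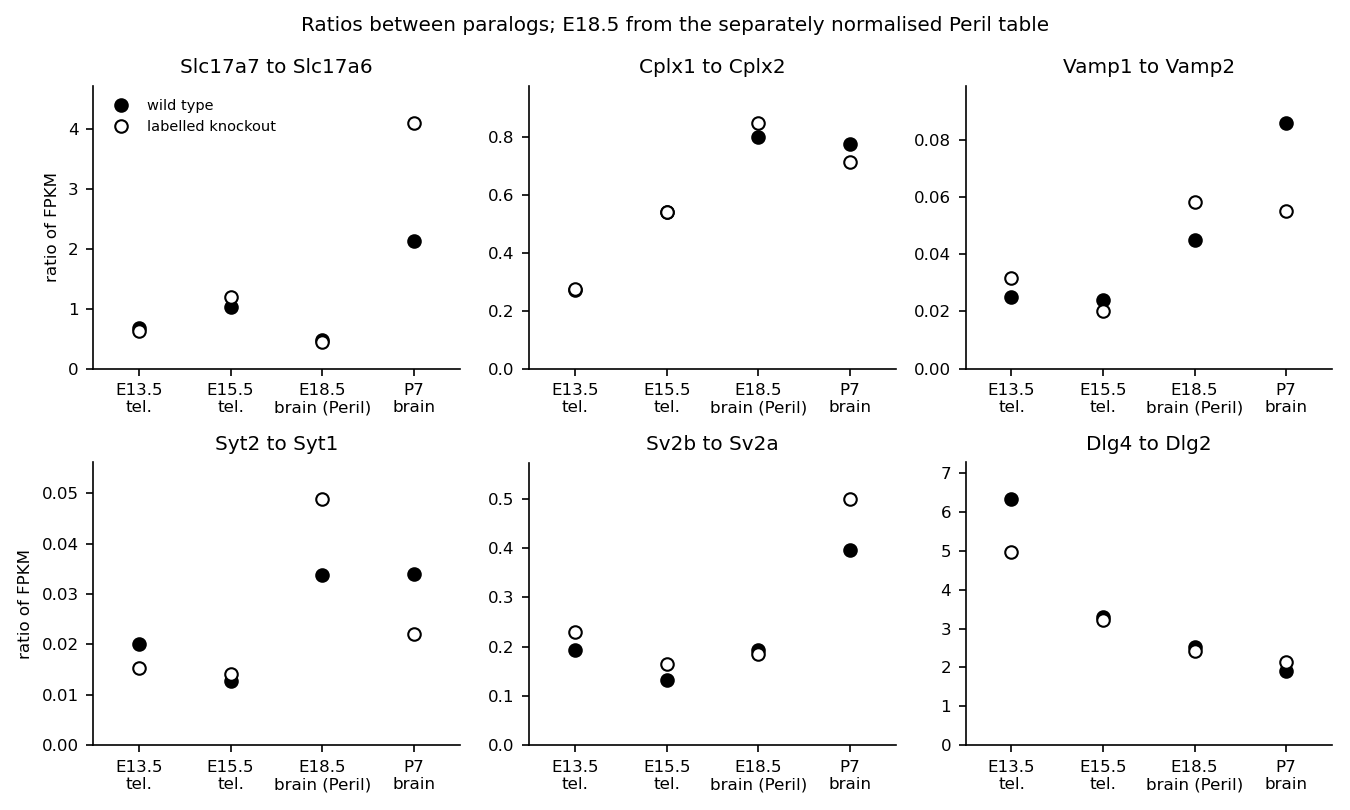
Ratio of FPKM between 6 pairs of paralogs (linear axes from 0) by age, with wild type as filled and the libraries labelled knockout as open points, 1 pooled value each. E18.5 is whole brain of the Peril strain, P7 is whole brain, and the earlier ages are telencephalon of the linc-Brn1b strain. Slc17a7 to Slc17a6 reached 2.12 in wild type and 4.10 in the knockout at P7, while Vamp1 to Vamp2 and Syt2 to Syt1 were lower in the knockout at that age.

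In E13.5 telencephalon of the linc-Brn1b strain most synaptic genes stood slightly higher in the knockout. The median member difference, knockout minus wild type, was 0.22 against 0.06 over all 13507 genes compared, and 32 of the 35 members compared were positive, as were 58.9% of all genes. Syt2 was the member not compared, at 0.609 FPKM and 0.579 FPKM. By a difference of 0.5 or more, 0 members were higher and 0 lower, where 2.72% of all genes were higher and 7.14% lower. At 0.25 or more, 14 of 35 members were higher, where 17.9% of all genes were.

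The members nearest to 0.5 at E13.5 belonged to different groups. Dlg2 stood at 7.96 FPKM in wild type against 11.7 FPKM in the knockout, and Syn2, a synapsin that tethers vesicles, at 11.7 FPKM and 17.0 FPKM, each just under 0.5. Unc13a, the priming factor Munc13-1, stood at 10.7 FPKM and 15.3 FPKM, a difference of 0.48. Nlgn1, the neuroligin of excitatory synapses, stood at 6.13 FPKM and 8.55 FPKM, a difference of 0.42. The medians of the 7 groups lay between 0.17 for vesicle proteins and 0.28 for active zone genes, a narrow span over the groups. Negative values were found for Rab3a, a vesicle GTPase, at -0.19, Shank3, a postsynaptic scaffold, at -0.08 and Slc32a1, the vesicular GABA transporter VGAT, at -0.06.

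Markers of other cells differed beside these values at E13.5, given here as sums over all genes of a list present in the table. Erythroid genes summed to 1106 FPKM in wild type against 467 FPKM in the knockout, endothelial genes to 62.6 FPKM and 42.7 FPKM with all 6 lower, and microglial genes to 22.4 FPKM and 13.2 FPKM with all 6 lower. Pan-neuronal genes summed to 2575 FPKM and 2514 FPKM, although 11 of 13 were higher in the knockout. Their median difference was 0.16, from Tubb3 at -0.36 to Elavl4 at 0.44. Progenitor genes summed to 1391 FPKM and 1356 FPKM, with 8 of 12 lower and a median of -0.09. Choroid plexus genes went the same way as the members, with all 5 higher in the knockout, sums of 173 FPKM and 219 FPKM and a median of 0.20. Their part in the member differences was not tested.

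In E15.5 telencephalon the genotypes were close throughout. The median member difference was 0.00 against 0.01 over all 13521 genes, with 21 of 35 members positive, as were 53.5% of all genes. Here 0 members were higher and 0 lower by at least 0.5, beside 0.251% of all genes higher and 0.34% lower. Sv2b had the largest difference at 0.30, with 5.18 FPKM in wild type against 6.605 FPKM in the knockout, followed by Camk2a at 0.25 with 12.5 FPKM and 14.999 FPKM. Camk2a encodes the alpha subunit of the calcium/calmodulin kinase of the postsynaptic density, a gene known mainly from forebrain excitatory neurons. Syn2 stood at 20.2 FPKM and 23.3 FPKM, a difference of 0.20. Vamp1 was lowest at -0.18, with 2.35 FPKM and 1.95 FPKM. Choroid plexus markers were the list that stood apart at this age, with all 5 lower in the knockout and sums of 248 FPKM and 5.59 FPKM, and its part in the member values was not tested. Pan-neuronal markers summed to 4036 FPKM and 4088 FPKM.

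In the Peril strain, whole brain at E18.5, the median member difference, libraries labelled knockout minus wild type, was 0.03 against 0.00 over all 14405 genes compared. Of the 36 members 25 were positive, as were 50.8% of all genes, and 0 were higher and 0 lower by at least 0.5, beside 1.54% of all genes higher and 1.06% lower. Syt2 had the largest difference at 0.41, with 3.31 FPKM for wild type and 4.73 FPKM for the knockout label. Pclo, the active zone scaffold piccolo, stood at 9.96 FPKM and 13.3 FPKM, a difference of 0.38, and Vamp1 at 9.40 FPKM and 12.1 FPKM, a difference of 0.33. All 5 active zone genes were positive, from 0.13 for Rims1 to 0.38 for Pclo, with a group median of 0.14. Slc17a7 was the lowest member at -0.10, with 19.7 FPKM and 18.4 FPKM. Choroid plexus markers summed to 841 FPKM for wild type and 578 FPKM for the knockout label, progenitor markers to 297 FPKM and 242 FPKM, microglial markers to 57.2 FPKM and 45.2 FPKM and endothelial markers to 87.3 FPKM and 74.4 FPKM. The cerebellum and hindbrain list summed to 105 FPKM and 93.5 FPKM, with 6 of the 8 genes compared lower, Pcp2 at -1.11 and Hoxb3 higher by 0.54. Astrocyte, oligodendrocyte and neuronal markers had slightly higher sums under the knockout label. Astrocyte markers summed to 292 FPKM and 314 FPKM and oligodendrocyte markers to 62.6 FPKM and 71.0 FPKM, and pan-neuronal markers to 5721 FPKM and 5790 FPKM. Their part in the member values was not tested.

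**Figure D3:**
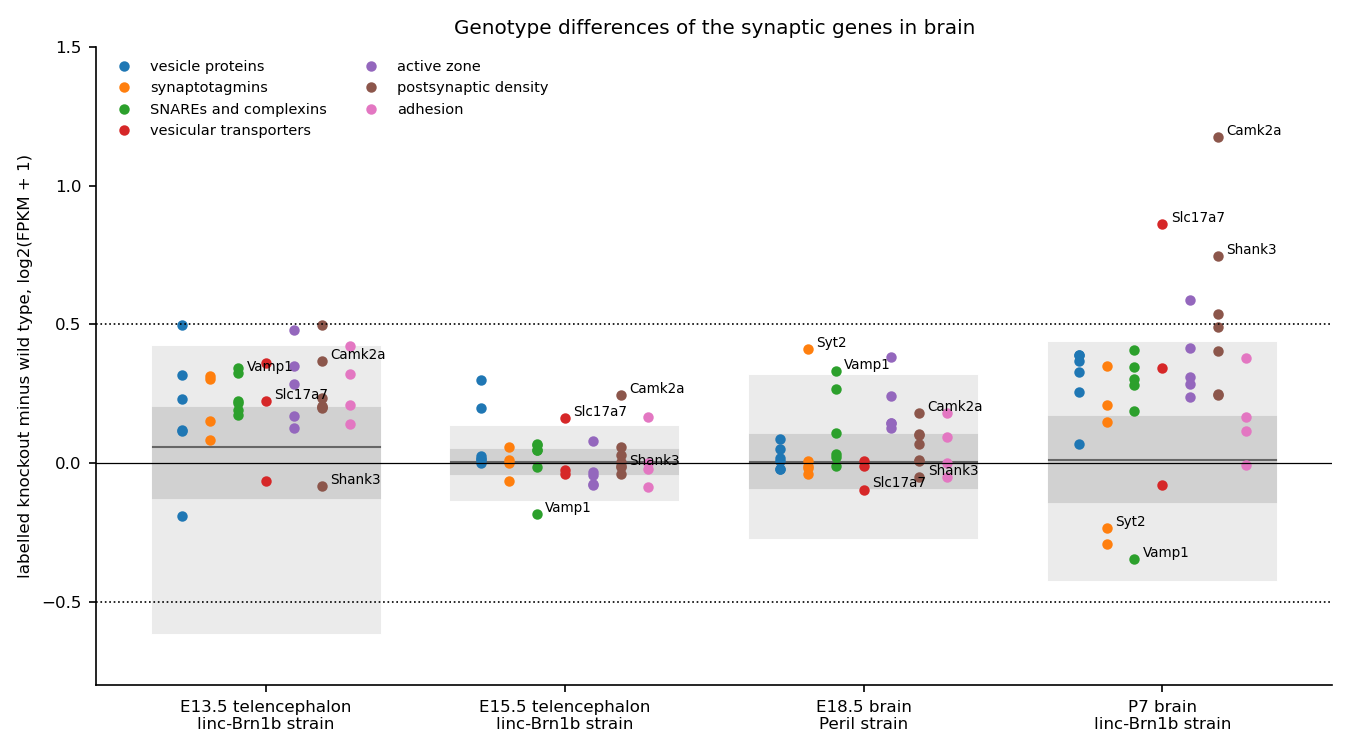
Genotype differences of the members compared (points, coloured by functional group) in the 4 brain comparisons, on the log2(FPKM + 1) scale, with dark and light bands for the middle 50% and 90% of all genes compared, a line at their median and dotted lines at 0.5 and -0.5. Camk2a at 1.18, Slc17a7 at 0.86 and Shank3 at 0.75 lie farthest above the light band in P7 brain, and no point passes 0.5 in the other 3 comparisons.

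The whole brain at P7 in the linc-Brn1b strain held the largest genotype differences among the members. The median was 0.31 against 0.01 over all 14175 genes compared, and 31 of 36 members were positive, as were 52.2% of all genes. By at least 0.5, 5 members were higher in the knockout and 0 lower, where 3.34% of all genes were higher and 3.29% lower. The 36 members summed to 3202 FPKM in wild type against 4050 FPKM in the knockout. Cerebellum and hindbrain markers also differed between these groups, as given below, and their part in these values was not tested.

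The postsynaptic density held 3 of the 5 genes past 0.5 and had the highest group median, 0.49, with all 7 genes positive. Camk2a stood at 87.0 FPKM in wild type against 198 FPKM in the knockout, a difference of 1.18 and a ratio of 2.28, at rank 45 of the 14175 genes ordered from the highest difference down. Shank3 (chr15:89330054-89390692 on mm9, plus strand) stood at 17.3 FPKM and 29.7 FPKM, a difference of 0.75. Shank1 stood at 34.2 FPKM and 50.0 FPKM, a difference of 0.54, and Shank2 was just under the threshold at 0.49 with 18.1 FPKM and 25.8 FPKM. The 3 Shank genes, which encode the deep scaffold of the excitatory postsynaptic density, thus had higher values together. Dlg4 stood at 137 FPKM and 182 FPKM, a difference of 0.40, while Homer1, which links Shank proteins to metabotropic glutamate receptors, and Dlg2 each had a difference of 0.25.

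Among presynaptic genes, Slc17a7 (chr7:52419291-52431508, plus strand) differed most, at 102 FPKM and 187 FPKM, a difference of 0.86 at rank 97. Bsn (chr9:107998354-108092715, minus strand) stood at 10.95 FPKM and 17.0 FPKM, a difference of 0.59. These are a transporter of cortical and hippocampal excitatory terminals and an organizer of the release site. Unc13a stood at 34.6 FPKM and 46.4 FPKM and Snap25 at 262 FPKM and 348 FPKM, each with a difference of 0.41. The 6 vesicle proteins were all positive, from 0.07 for Sv2a to 0.39 for Sv2b, and Syp reached the highest level of any member, 430 FPKM in the knockout against 342 FPKM. Slc32a1 stood at 32.8 FPKM and 41.9 FPKM, a difference of 0.34, so that higher values in the knockout were found for both a glutamate and a GABA transporter. The X-linked members Syn1, Syp and Nlgn3 had differences of 0.37, 0.33 and 0.38.

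The 5 members with lower values at P7 were Vamp1, Syt4, Syt2, Slc17a6 and Nlgn1. Vamp1 (chr6:125165569-125194561, plus strand) stood at 30.1 FPKM in wild type against 23.5 FPKM in the knockout, a difference of -0.35. Syt4, a synaptotagmin of dense-core and other regulated vesicles, stood at 105 FPKM and 85.3 FPKM, a difference of -0.29. Syt2 stood at 7.38 FPKM and 6.12 FPKM, a difference of -0.24. Slc17a6, used mainly by subcortical and brainstem glutamatergic neurons, had a difference of -0.08 and Nlgn1 of -0.01. Of these 5, Vamp1, Syt2 and Slc17a6 are known mainly from regions caudal to the cortex. Slc17a6 and Nlgn1 lay above the lower quartile of all genes compared at P7, which was -0.14. In the Peril strain at E18.5, Vamp1 and Syt2 were higher under the knockout label, by 0.33 and 0.41. Slc17a6 differed there by -0.01. Of the 8 cerebellum and hindbrain genes compared there, 6 were lower, with Pcp2 lowest at -1.11, and 2 were higher, with Hoxb3 highest at 0.54. Whether the regional makeup of the tissue had a part in these member values was not tested.

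Markers of regions and cell types also differed at P7. Of the 10 cerebellum and hindbrain genes, 5 had a mean of at least 1 FPKM and all 5 were lower in the knockout by at least 0.5, with a median of -1.23, and the list summed to 102 FPKM in wild type against 44.9 FPKM in the knockout. Pcp2, a Purkinje cell gene, stood at 14.7 FPKM and 1.48 FPKM, and the Hox gene Hoxb3 at 1.54 FPKM and 0.0221 FPKM. The genes of the list under the minimum level, Hoxb3 among them, were lower too. Hoxa2 stood at 0.803 FPKM and 0.0198 FPKM, and Gabra6 at 0.519 FPKM and 0.0324 FPKM. Most of the list sum came from Zic1, at 38.8 FPKM and 16.0 FPKM, and Cbln1, at 38.0 FPKM and 24.9 FPKM. Neither was confined to cerebellum and hindbrain here. In wild-type E15.5 telencephalon Zic1 stood at 38.1 FPKM and Cbln1 at 9.77 FPKM. Oligodendrocyte genes were lower in 8 of 8, with 623 FPKM and 376 FPKM in sum, progenitor genes in 8 of the 11 compared, with 165 FPKM and 113 FPKM, and choroid plexus genes in 5 of 5, with 457 FPKM and 311 FPKM. Pan-neuronal genes summed to 5071 FPKM and 4702 FPKM with a median difference of -0.09, astrocyte genes to 688 FPKM and 669 FPKM with 5 of 8 lower and a median of -0.29, from Aldh1l1 at -0.98 to Slc1a2 at 0.71, endothelial genes to 67.8 FPKM and 68.8 FPKM and microglial genes to 71.9 FPKM and 79.6 FPKM. The part of these differences in the member values was not tested, and with 1 value per group the makeup of the tissue pieces and the genotype cannot be told apart.

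**Figure D4:**
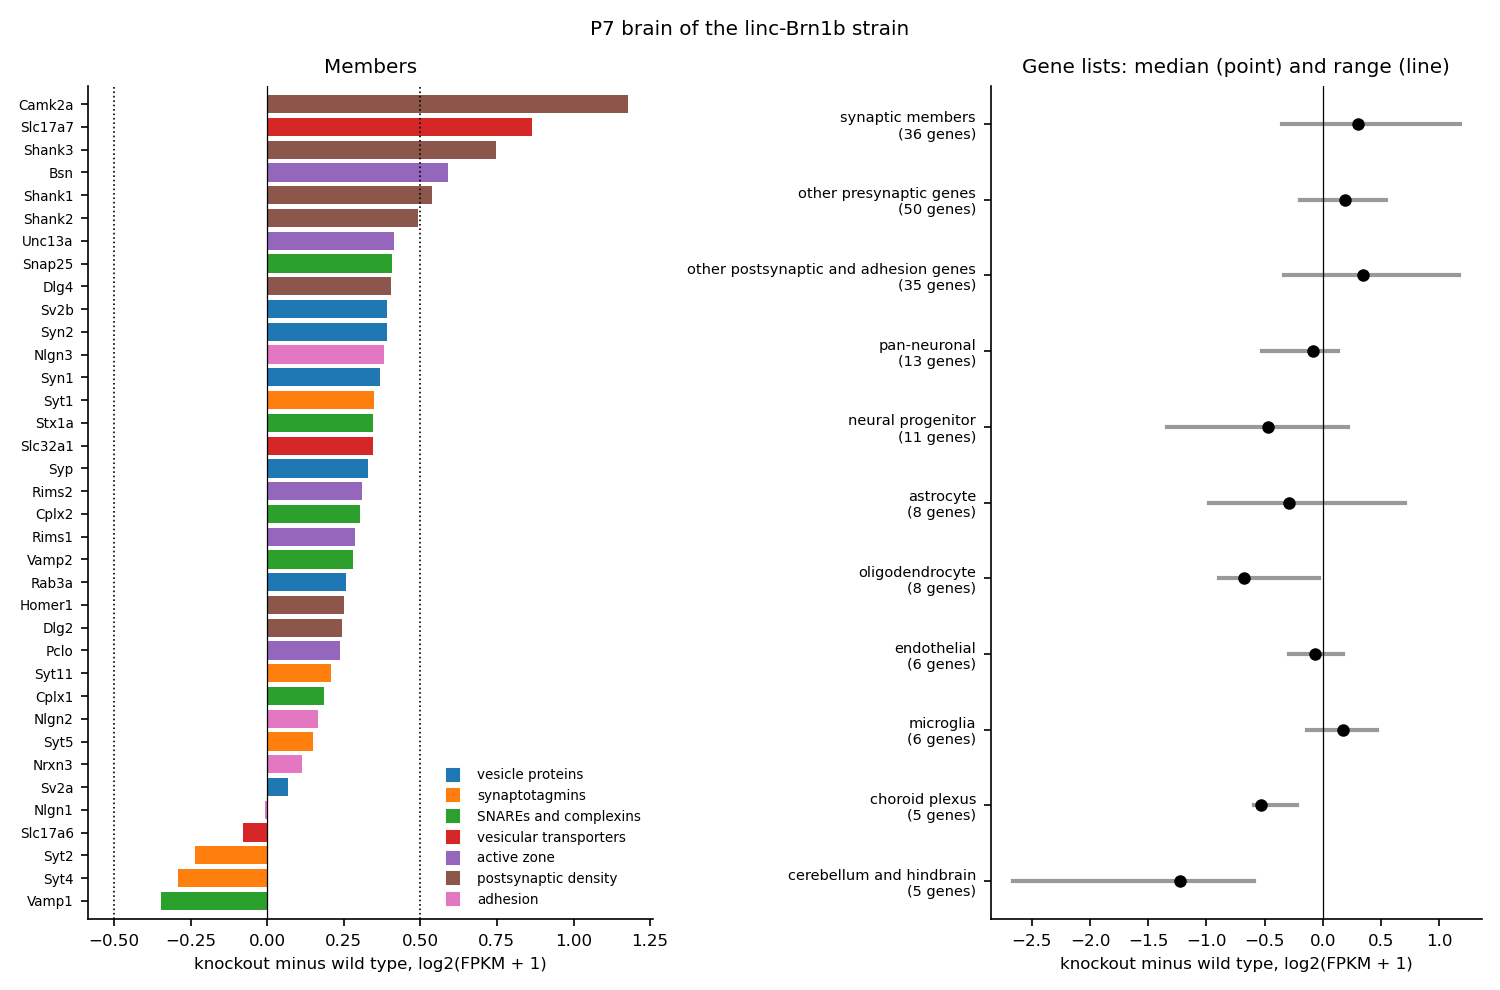
Left, knockout minus wild type on the log2(FPKM + 1) scale in P7 brain for all 36 members in order, as bars coloured by functional group with dotted lines at 0.5 and -0.5; right, the median and range of the same difference in the members, the other synaptic genes and cell type or region marker lists. Camk2a leads at 1.18 and Vamp1 is lowest at -0.35, and the cerebellum and hindbrain list has the lowest median, -1.23.

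Other synaptic genes were read beside the members at each age. At P7 the 50 other presynaptic genes had a median difference of 0.19, with 3 higher by at least 0.5 and 0 lower, beside 3.34% of all genes higher and 3.29% lower, and 44 positive. The 3 were Dnm1, the dynamin of vesicle retrieval, at 152 FPKM and 222 FPKM, Syt10 at 3.09 FPKM and 4.85 FPKM and Rimbp2 at 12.8 FPKM and 18.47 FPKM. The 35 other postsynaptic and adhesion genes had a median of 0.34, with 11 of the 35 higher by at least 0.5 and 0 lower. Arc, an activity-regulated gene, stood at 1.79 FPKM and 5.26 FPKM, a difference of 1.17, Synpo, a spine apparatus gene, at 7.18 FPKM and 14.4 FPKM, and Nptxr, a neuronal pentraxin receptor, at 5.03 FPKM and 10.1 FPKM. Homer3, which is prominent in Purkinje cells, was lowest at -0.34. It was not confined to cerebellum here, at 20.5 FPKM in E13.5 and 16.5 FPKM in E15.5 wild-type telencephalon. At E13.5 the other presynaptic list had a median of 0.24 with 1 of 43 genes higher by 0.5 or more, Synpr at 0.54, and the other postsynaptic list a median of 0.23 with 1 of 34, Lrfn5 at 0.54, where 2.72% of all genes were higher, so these counts were near the background. At E15.5 the medians were 0.03 and 0.04 with 0 genes past 0.5. In the Peril strain they were 0.05 and 0.06, with Cadm2 alone past 0.5 at 11.9 FPKM and 17.8 FPKM, where 1.54% of all genes were higher.

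Across the 4 brain comparisons, which share no group, 35 members passed the minimum level in all. Of these, 14 (40.0%) were higher in the knockout or the libraries labelled knockout every time and 0 were lower every time, where 9.23% of the 12074 genes present in both tables and compared in all 4 were higher and 5.09% lower. The 14 were Camk2a, Cplx1, Cplx2, Dlg2, Dlg4, Homer1, Nrxn3, Rims2, Snap25, Stx1a, Sv2a, Sv2b, Syp and Syt5. This count uses the same signs as the numbers of positive members given above for each comparison, and in part restates them. Many of these values were small, since Homer1 had 0.20, 0.00, 0.01 and 0.25 at E13.5, E15.5, E18.5 and P7. Camk2a had 0.37, 0.25, 0.18 and 1.18 in the same order. Stx1a, a plasma membrane SNARE, had 0.19, 0.05, 0.03 and 0.35, and Nrxn3, a presynaptic neurexin, had 0.32, 0.00, 0.09 and 0.11.

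E14.5 lung of the Fendrr strain served as a tissue outside the brain. Only 18 of the 36 members passed a mean of 1 FPKM, and the median over all 36 was 0.663 FPKM in wild type against 0.9496 FPKM in the knockout. Vamp2 was the highest at 24.4 FPKM and 26.0 FPKM, followed by Nlgn2 at 19.6 FPKM and 20.3 FPKM, Cplx2 at 14.2 FPKM and 16.0 FPKM and Dlg4 at 10.5 FPKM and 11.7 FPKM. The transporters Slc17a6 and Slc32a1 stood at or under 0.0365 FPKM in both genotypes. The median difference of the 18 members was 0.03 against 0.00 over all 13979 genes, and 0.02 over all 36 members without the minimum level, with 1 member higher by at least 0.5 and 0 lower, beside 1.8% of all genes higher and 1.23% lower. This was Camk2a, at 0.717 FPKM and 1.65 FPKM, a difference of 0.63, and it passed the minimum level only through its knockout value. Vamp1 was lowest, at 3.27 FPKM and 2.18 FPKM, a difference of -0.43, and Shank3 stood at 8.31 FPKM and 6.43 FPKM, a difference of -0.33. Endothelial markers had sums of 323 FPKM and 260 FPKM (wild type, then knockout), with all 6 lower and a median of -0.33. Lung epithelial markers summed to 1033 FPKM and 1057 FPKM with a median of -0.16 and 3 of 5 lower, pan-neuronal markers to 68.5 FPKM and 75.1 FPKM, autonomic neuron markers to 4.38 FPKM and 7.90 FPKM and neuroendocrine markers to 4.02 FPKM and 5.33 FPKM. Their part in the member values was not tested. The other presynaptic genes had a median of -0.05 over 24 genes, and the other postsynaptic genes a median of 0.04 over 17 genes.

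Some members share their locus in the tables with another entry, in 19 of 36 cases, and reads could be split between overlapping entries. At Rims2 the entry RIM2 stood at 3.99 FPKM in wild type against 6.49 FPKM in the knockout at P7, beside 14.6 FPKM and 18.3 FPKM for Rims2 itself. Adding both gave a Rims2 difference of 0.40 at P7 instead of 0.31. The library protocol is not stated to keep strand, so reads of Slc32a1 and Syt1 cannot be told apart from those of the antisense entries listed at their loci, at 24.8 FPKM for the Slc32a1 antisense entry and 1.17 FPKM for that of Syt1 in wild type at E13.5.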

How the data were processed

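RNA-seq tables of 3 lincRNA knockout strains were used. Per the submitters' processing notes, TopHat2 aligned the paired-end reads (build mm9) and Cufflinks 2.0.2 assembled them, and the authors compared groups with Cuffdiff2. The deposited values used here are FPKM, normalized within each table, with 1 value per group and 0 columns of values per library. Depth and replicate spread are therefore unknown, and no test, interval or paired fit was made. The tables also hold the authors' fold changes, test statistics, p-values and q-values, which were not used. Comparisons stayed within a table.

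Differences are log2(FPKM + 1) of the knockout minus the wild type, or of the later minus the earlier age, over genes with a mean of at least 1 FPKM in both groups together, with thresholds of 0.5 for genotype and 1 for age. Alternatives were a pseudocount of 0.1 FPKM, no filter, centring on the median of all genes, and thresholds of 0.25 and 2. Scripts (Python, pandas) were tested on simulated data. All members were described, and of the other synaptic lists genes were named from the 3 highest and 3 lowest per comparison, except for a gene that is not reported here. Members and lists were chosen with earlier results of these data known. Gene positions are from GENCODE vM1 on mm9, and promoter windows are RefSeq sequences on GRCm38.p6.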

Additional observations from a re-analysis of the deposited data

How the results depend on the processing

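With 1 pooled value per group, no library could be left out. No paired analysis was possible because no test was run and no value per library was used. Removing the filter on low values moved no count by over 1.5 times and no median by over 0.1. With a pseudocount of 0.1 FPKM, members higher by at least 0.5 numbered 3 of 35 at E13.5 (5.175% of all genes) and 1 of 36 in the Peril strain (3.05%) instead of 0, 1 of 18 was lower in lung (2.42%) instead of 0, and 4 of 35 were higher by at least 1 from E13.5 to E15.5 in the knockout (4.65%) instead of 2. Centring on the median of all genes also gave 4 for that last count (3.52%), and a median of 1.51 instead of 1.41 for wild type from E15.5 to P7. At a threshold of 0.25 the members higher were 14 of 35 at E13.5 (17.86% of all genes), 1 of 35 at E15.5 (1.07%), 4 of 36 in the Peril strain (7.66%) and 22 of 36 at P7 (15.46%), with 2 lower at P7 (13.21%) and 2 of 18 lower in lung (6.28%). At a threshold of 2, 0 members were higher from E13.5 to E15.5 in wild type (0.214% of all genes) or in the knockout (0.324%), and 10 of 36 in wild type (3.72%) and 14 of 36 in the knockout (4.52%) from E15.5 to P7. Summing the Rims2 and RIM2 entries, an alternative added after seeing the data, gave 0.90 instead of 0.72 in wild type and 1.26 instead of 0.95 in the knockout from E15.5 to P7. Depth is unknown, so small differences, such as most at E15.5, could not be set against counting error.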
